A study of Mus musculus with 21 samples.

Results

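CD8+ T cells of the mouse spleen, kept for 48 h in medium that dendritic cells (DC) had conditioned, were compared with CD8+ T cells kept in fresh medium. All arrays titled with either medium were used, 7 DC-conditioned and 7 fresh, which is 14 of the 21 arrays of the study. The remaining 7 arrays came from cells in medium conditioned by WEHI 3B, a mouse line of acute myeloid leukaemia (AML), and serve below for a side-by-side reading. In both groups T cells from the spleen of wildtype mice were activated with CD3/CD28 Dynabeads in complete RPMI with 2-ME, and CD8+ cells were recovered by MACS before RNA was extracted. The DC-conditioned medium was the sterile filtered supernatant of a 48 h culture of bone marrow derived dendritic cells, and it replaced the culture medium of the T cells. The T cells thus met what dendritic cells release or use up, and not the dendritic cells. The labels do not say how the dendritic cells were grown or matured, or whether 1 batch of supernatant served all 7 cultures. The labels call the 7 arrays of a medium biological replicates and do not say which mice they came from. Each value is a log2 expression level of 1 gene on 1 array, and the 19505 genes with a single symbol were tested with limma on these 14 arrays.

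Dendritic cells present antigen to CD8+ T cells and steer them by costimulation and by soluble products such as IL-12, type I interferon, chemokines and prostaglandins. They also take up nutrients and release metabolites, so their spent medium differs from fresh medium in what it lacks as well as in what it holds. A CD8+ T cell activated through CD3 and CD28 enters the cell cycle, raises glycolysis and makes granzymes and cytokines with or without such signals.

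The differences between the media were small. With the spread of all 14 arrays no gene passed the test for a difference, and nearly all genes were shown to lie within 1.5-fold between the media. These include genes of low level, whose detection was not assessed. The 5 genes that differed by 1.5-fold or more were the metallothioneins *Mt1* and *Mt2*, the integrin gene *Itgae* and the transporter gene *Abcd3*, which were higher in the DC-conditioned arrays, and *Sowaha*, which was lower there. The smallest p on the higher side belonged to the growth factor gene *Gdf11* and on the lower side to the channel gene *Lrrc8d*.

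Genes of T cell identity had high levels in both media. The mean of a T cell list ran from 10.67 to 10.89 on DC-conditioned and from 10.68 to 10.87 on fresh arrays. That is in the highest of 4 equal classes of genes by level, which began at 7.68. All 12 measured members of this list lay within 1.2-fold between the media, beside 44.4% of all genes and 65.9% of that class. Their differences ran from -0.06 (*Thy1*) to 0.05 (*Cd3e*) on the log2 scale. The description field of the labels speaks of CXCL12-abundant reticular cells, against all other fields. *Cxcl12* itself had a log2 level from 5.19 to 5.50 in DC-conditioned and from 5.18 to 5.71 in fresh medium. The median level of all genes was 5.41. The 10 lists of markers of other cells had median differences from -0.09 to -0.02, and 3 of their 94 measured genes had an unadjusted p under 0.05, all lower in DC-conditioned medium (*C1qb*, *Cxcr2* and *Ccr7*), beside 4.12% of all genes in that direction. *Flt3* and *Itgax*, defining genes of dendritic cells, had median log2 levels of 3.52 and 3.57 in DC-conditioned and 3.51 and 3.49 in fresh medium, in the lowest of 4 equal classes of genes by level, which ended at 3.67. Levels in that class lie near the lower end of the arrays, where differences are compressed and detection was not assessed.

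Across all 19505 genes the median difference was -0.01, the 5th and 95th percentiles were -0.19 and 0.16, and 45.2% of genes had a difference above 0. With limma 0 genes (0%) had an adjusted p under 0.05, and the smallest adjusted p was 0.255. At an unadjusted p under 0.05 there were 1198 genes (6.14%), 395 of them higher (2.03%) and 803 lower (4.12%) in DC-conditioned medium. That split depended on scaling: with each array centred on its median it was 696 higher and 425 lower, and after a further quantile normalization 545 higher and 601 lower. Only 5 genes (0.0256%) differed by 1.5-fold or more, namely *Mt2*, *Itgae*, *Mt1* and *Abcd3* on the higher side and *Sowaha* on the lower, and 0 genes reached 2-fold. In 22 genes (0.113%) the groups did not overlap, 7 of them with all DC-conditioned arrays higher (0.0359%) and 15 with all lower (0.0769%).

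Equality was tested by itself, since a p that misses a threshold does not show it. Each gene was tested against a difference of 1.5-fold in either direction, 0.585 on the log2 scale, with the p-values of the limma fit adjusted over all genes. By this test 19386 genes (99.4%) lay within 1.5-fold between the media, and 119 could not be placed there. Within 2-fold there were 19501 (100% after rounding), all but 4. The narrower margin of 1.2-fold was met by 8651 genes (44.4%). The median standard error was 0.0921, which gives a 95% interval of 0.194 to either side of a difference, so the 7 arrays a group limit what a margin of 1.2-fold (0.263) can show. The share within 1.2-fold was 65.9% in the class of genes with the highest levels, 36.5% and 26.0% in the middle classes and 49.1% in the lowest. Within 1.5-fold lay 4872 of the 4876 genes of the lowest class (99.9%). Differences are compressed there and detection was not assessed, so for these genes equality of the values may not be equality of expression.

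**Figure D1:**
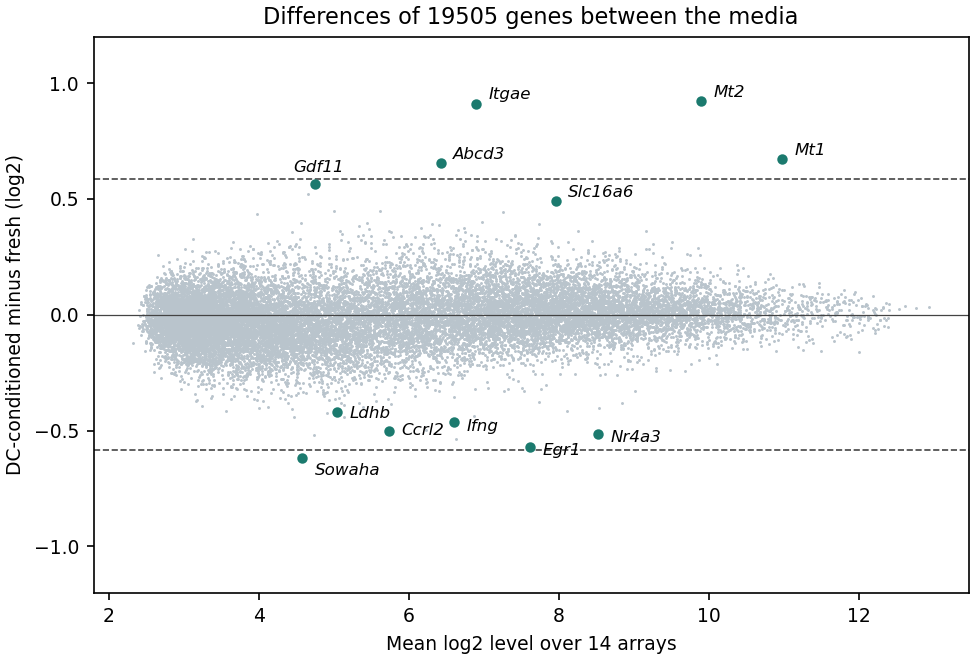
Difference between DC-conditioned and fresh medium (log2, vertical axis) against the mean log2 level over 14 arrays (horizontal axis), with 1 point for each of 19505 genes. Dashed lines mark 1.5-fold in either direction, and only 5 of the genes lie outside them; the labelled genes are those described in the text.

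Genes of cell division and of energy metabolism lay close together in the media. Of 25 measured mitosis genes 20 lay within 1.2-fold, beside 44.4% of all genes, with a median difference of 0.03 against -0.01 for all genes. *Mki67*, a marker of cycling cells, differed by 0.02 (SE 0.06), and its levels from 11.37 to 11.53 in DC-conditioned medium fell inside the range in fresh medium, 11.21 to 11.55. Of 24 DNA replication genes, 13 lay within 1.2-fold and all within 1.5-fold. In the glycolysis list 11 of 14 measured genes lay within 1.2-fold, and the whole list ran only from -0.05 (*Slc2a1*, the glucose transporter GLUT1) to 0.09 (*Pfkp*, a phosphofructokinase). The median of this list was -0.08 among replicates 1 to 3 and 0.11 among replicates 4 to 7. *Aldoa*, which encodes aldolase A, had among the narrowest intervals of all list members, -0.13 to 0.09. Fatty acid oxidation (14 of 16 within 1.2-fold), mitochondrial respiration (19 of 25) and MHC class I peptide loading (11 of 13) also had larger shares within this margin than all genes. The mean levels of all these lists lay in the class with the highest levels, which began at 7.68. In that class 65.9% of genes lay within 1.2-fold, so part of the comparison with all genes goes with level. The DNA replication genes had a smaller share than that class.

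Effector genes also showed no difference that passed the test, beside 0% of all genes. *Gzmb*, which encodes granzyme B, had a log2 level of 11.55 ± 0.39 (SD, n = 7) in DC-conditioned and 11.49 ± 0.30 in fresh medium, and *Prf1*, which encodes perforin, 6.04 ± 0.32 and 6.02 ± 0.18. Both ranges overlapped widely. Of 19 measured cytotoxic genes 18 lay within 1.5-fold and 3 within 1.2-fold, beside 99.4% and 44.4% of all genes, with a median difference of 0.02, so most of them were not shown to be equal at the narrower margin. *Gzmm*, a further granzyme, was higher by 0.29 (SE 0.12) and *Serpinb9*, an inhibitor of granzyme B, lower by a difference of -0.26 (SE 0.09), both with an unadjusted p under 0.05 and a limma adjusted p of 0.794 and 0.757.

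Dendritic cells commonly reach CD8+ T cells through cytokine pathways. None of the pathway genes passed the test for a difference, beside 0% of all genes. Among 25 measured genes induced by type I interferon the median difference was -0.07, and 0 had an unadjusted p under 0.05, beside 6.14% of all genes. At that share a list of this size can hold 0. All 25 lay within 1.5-fold and 5 within 1.2-fold, beside 99.4% and 44.4% of all genes. Of 17 genes induced by interferon gamma 13 lay within 1.2-fold, and of 15 in the list for IL-12 and STAT4 only 1 did. In the latter list *Tbx21*, the transcription factor T-bet, was higher by 0.22 (SE 0.09), while *Ifng*, which encodes interferon gamma, had a difference of -0.46 (SE 0.22). With an unadjusted p under 0.05 this list held 1 higher gene, *Tbx21*, and 2 lower, *Ifng* and *Hlx*. The shares of all genes were 2.03% and 4.12%. *Ifng* levels were 5.63, 6.65 and 6.89 (lowest, median and highest) in DC-conditioned and 6.22, 6.78 and 7.34 in fresh medium. The ranges overlapped, and the difference was -0.08 among replicates 1 to 3 and -0.75 among replicates 4 to 7. The limma adjusted p of *Tbx21* was 0.795 and that of *Ifng* 0.799. Inhibitory receptors had a median difference of 0.00, and all 16 lay within 1.5-fold and 5 within 1.2-fold, with *Pdcd1* (PD-1) and *Lag3* at differences of -0.04 (SE 0.10) and 0.05 (SE 0.08). *Cd160*, another receptor of that list, was higher by 0.28 (SE 0.08, limma adjusted p = 0.750), and 5 of 7 DC-conditioned arrays lay above every fresh array. It was the 1 higher member with an unadjusted p under 0.05, and *Cd101*, at a difference of -0.24, was the 1 lower. The shares of all genes were 2.03% and 4.12%. *Havcr2* had the largest difference of the list, 0.31, without an unadjusted p under 0.05.

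**Figure D2:**
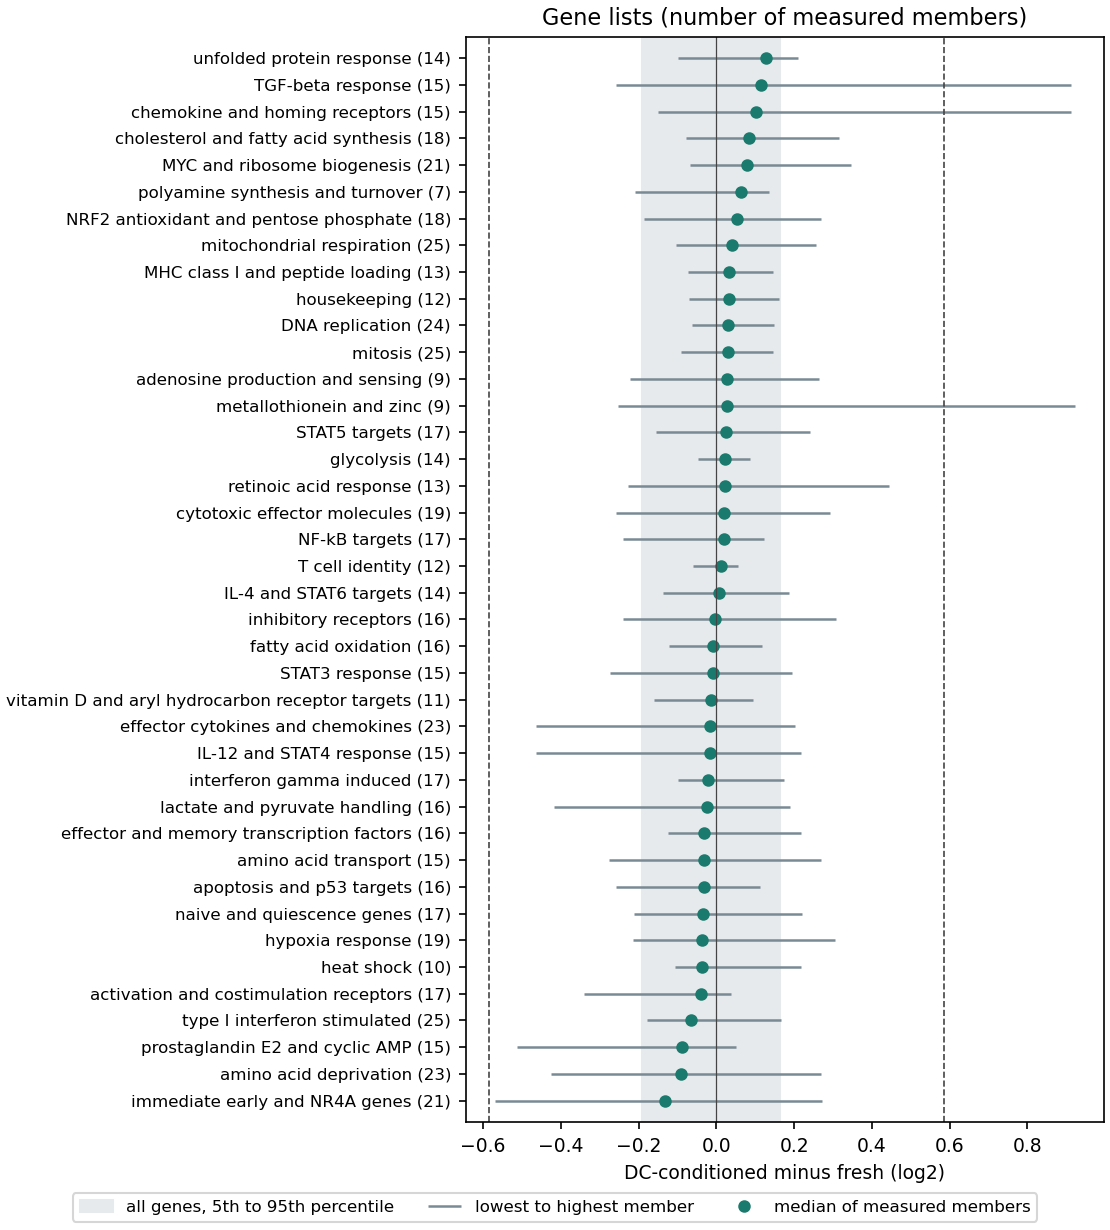
Median (points) and range (lines) of the log2 difference between DC-conditioned and fresh medium for 40 gene lists, with the number of measured members in brackets. The grey band runs from the 5th to the 95th percentile of all genes, and all 40 medians lie inside it, the lowest at -0.13 and the highest at 0.13; dashed lines mark 1.5-fold.

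Metallothioneins, small cysteine-rich proteins that bind zinc and copper and whose genes are switched on by free zinc, showed the largest difference. *Mt1* had log2 levels of 10.99, 11.34 and 11.60 (lowest, median and highest) in DC-conditioned medium and 10.35, 10.57 and 11.14 in fresh medium. In 5 of 7 DC-conditioned arrays it was above every fresh array, and fresh replicate 7, the highest of its group, overlapped with the lower DC-conditioned arrays. It was higher by 0.67 (SE 0.12), which is 1.59-fold, with a limma adjusted p of 0.255. Leaving out fresh replicate 7, the overlapping array, was bound to widen the gap, and gave 0.75 with a limma adjusted p of 0.0480. Under another alternative the limma adjusted p was as high as 0.856. *Mt2* had levels of 9.79, 10.26 and 11.00 against 8.57, 9.16 and 10.64. Its fresh arrays spread widely, with replicates 6 and 7 at 10.02 and 10.64 inside the range of the DC-conditioned arrays and the other 5 below it. The difference was 0.92 (SE 0.27), 1.89-fold, with a limma adjusted p of 0.750. Among replicates 1 to 3 the differences of *Mt1* and *Mt2* were 0.63 and 0.86, and among replicates 4 to 7 they were 0.70 and 0.97.

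The zinc sensor that turns these genes on, the transcription factor MTF1, binds metal response elements before the start of transcription, and so the sequences there are shown for both genes. Positions are on GRCm38.p6 and the sequences are from RefSeq, with matches to the core of the element in capitals, TGCACNC or TGCGCNC on either strand.
*Mt2*, chr8:94172368-94172617, plus strand: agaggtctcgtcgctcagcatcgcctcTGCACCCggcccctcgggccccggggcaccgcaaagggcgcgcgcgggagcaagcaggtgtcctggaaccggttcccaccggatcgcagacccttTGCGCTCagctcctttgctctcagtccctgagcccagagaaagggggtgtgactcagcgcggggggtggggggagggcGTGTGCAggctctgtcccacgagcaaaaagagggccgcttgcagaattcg
*Mt1*, chr8:94179059-94179088, plus strand: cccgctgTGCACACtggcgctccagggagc
The 250 bases before the *Mt2* start hold 3 matches, whose first bases lie at -223, -128 and -50 from the start, and the last of them is on the minus strand. The *Mt1* window of the same length before the annotated start holds 1 match, at -23, within the last 30 bases printed here. A predicted transcript spans that window, and bases outside it were not searched. The count for *Mt1* is thus not a count of all elements of that gene. Of 15691 tested genes with such a window, 24.8% hold at least 1 match and 1.59% hold at least 3. A match of these letters is a description of the sequence and shows no binding.

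Other genes of zinc handling differed by less. Of the 9 measured members of the list, 3 had an unadjusted p under 0.05, all higher (*Mt1*, *Mt2* and *Slc39a6*), beside 2.03% of all genes in that direction, and the list's median was 0.03. *Slc39a6*, a zinc importer, was higher by 0.16 (SE 0.08, limma adjusted p = 0.799). *Mtf1* itself differed by -0.02 (SE 0.07) and lay within 1.2-fold. *Slc30a1*, the zinc exporter that MTF1 also controls, differed by 0.03 (SE 0.11), and its window holds 1 match to the element's core. *Slc39a10*, another importer, had the lowest difference of the list, -0.25 (SE 0.18).

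**Figure D3:**
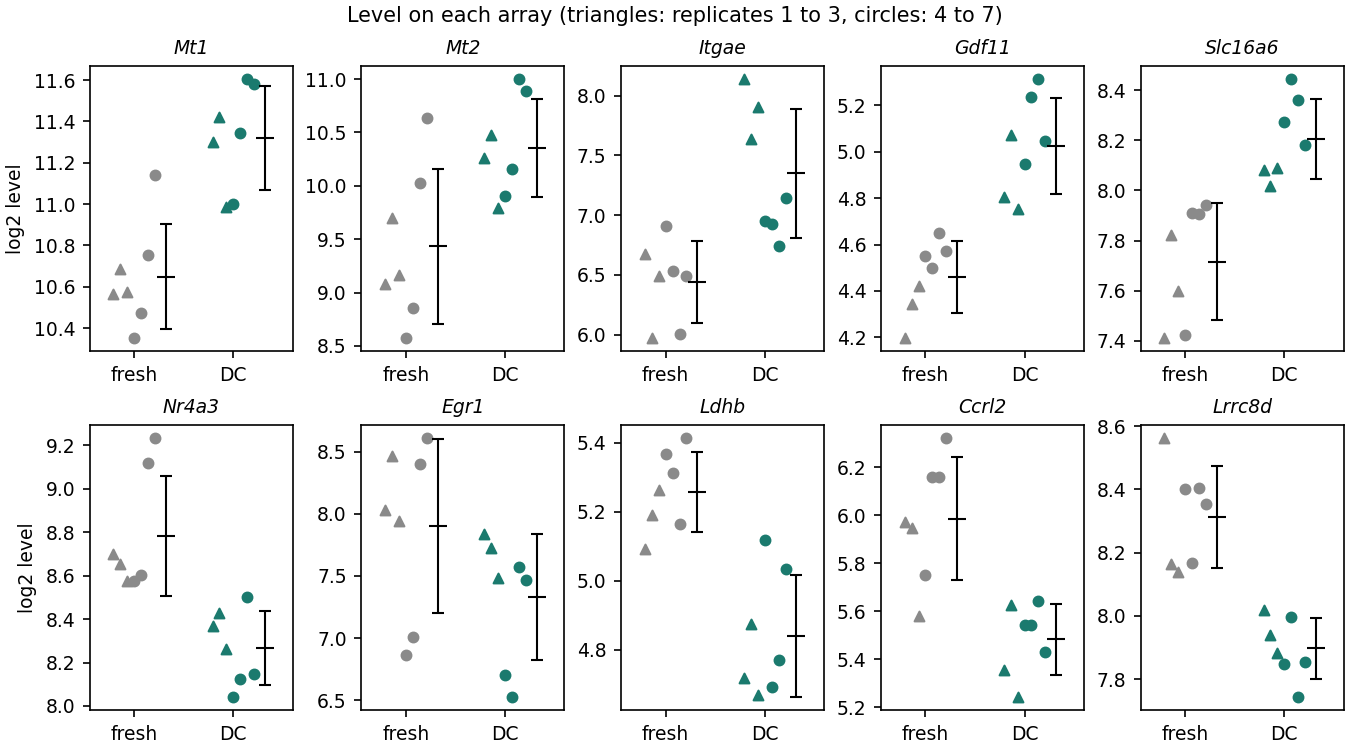
Log2 level (vertical axes, each on its own scale) of 10 genes on each of 7 fresh and 7 DC-conditioned arrays, with replicates 1 to 3 as triangles, 4 to 7 as circles, and the mean with its SD beside each group. The groups do not overlap in *Gdf11*, *Slc16a6*, *Nr4a3* and *Lrrc8d*, and they do overlap in *Mt1*, *Mt2*, *Itgae*, *Egr1*, *Ldhb* and *Ccrl2*.

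Among chemokine and homing receptors *Itgae* had the largest difference. *Itgae* encodes CD103, the integrin chain by which T cells hold on to E-cadherin of epithelial cells, and it is a known target of TGF-beta signalling. Its log2 levels were 6.75, 7.15 and 8.14 in DC-conditioned and 5.97, 6.49 and 6.91 in fresh medium (lowest, median and highest), and 6 of 7 DC-conditioned arrays lay above every fresh array. It was higher by 0.91 (SE 0.20), 1.88-fold, with a limma adjusted p of 0.408. The size differed between sets of replicates: DC-conditioned replicates 1 to 3 stood at 8.14, 7.64 and 7.90, and replicates 4 to 7 at 6.95, 6.93, 6.75 and 7.15. The difference was 1.52 in the first set and 0.46 in the second. A limma test of medium by replicate set gave an adjusted p of 0.415 for *Itgae* and 0 genes under 0.05 in all, with 1759 at an unadjusted p under 0.05 (9.02%).

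Of 15 measured chemokine and homing receptors, 5 had an unadjusted p under 0.05 on the higher side and 1 on the lower, beside 2.03% and 4.12% of all genes, and the median was 0.10. Those higher were *Itgae*, *Ccr9* by 0.44 (SE 0.21), *Ccr2* by 0.31 (SE 0.13), *Cxcr6* by 0.29 (SE 0.13) and *Itga4* by 0.26 (SE 0.12). *Ccr9* and *Itga4* direct T cells to the gut, and *Ccr2* and *Cxcr6* to inflamed and peripheral tissue. *Ccr7*, the receptor for entry into lymph nodes, was the lower one. *Ccr9* levels were 7.17, 7.47 and 7.76 in DC-conditioned and 6.11, 7.13 and 7.71 in fresh medium. The ranges of *Ccr9* overlapped and only 2 DC-conditioned arrays exceeded every fresh array. Both gut receptors differed mainly among replicates 4 to 7, by 0.73 for *Ccr9* and 0.49 for *Itga4*, against 0.07 and -0.05 among replicates 1 to 3. The limma adjusted p was 0.799 for *Ccr9*, *Ccr2*, *Cxcr6* and *Itga4*. The DC-conditioned arrays had list means from 0.01 to 0.32 above the fresh average, and the fresh arrays from -0.24 to 0.11.

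Gut receptors are induced in T cells by retinoic acid, which some dendritic cells make, and CD103 by TGF-beta. A part of either signal was not tested. In the retinoic acid list, which also holds *Ccr9* and *Itga4*, the other 11 measured genes had 0 with an unadjusted p under 0.05 on the higher side, beside 2.03% of all genes. At that share 11 genes would commonly hold 0. *Rarb*, a receptor gene that retinoic acid commonly induces, was lower, with a difference of -0.23 (SE 0.10), and lay below every fresh array in 6 of 7 and above them all in the remaining one. In the TGF-beta list the median was 0.11, and of 15 measured genes *Itgae* alone had an unadjusted p under 0.05 on the higher side and *Smad6* alone on the lower, beside 2.03% and 4.12% of all genes. *Ski* and *Skil*, corepressors of SMAD proteins, differed by 0.12 (SE 0.06) and 0.11 (SE 0.08), *Smad7*, the inhibitory SMAD, by 0.14 (SE 0.12), and *Pmepa1*, another feedback inhibitor, by -0.13 (SE 0.07). *Smad6*, a further inhibitory SMAD, had a difference of -0.26 (SE 0.12). The median of this list was 0.17 among replicates 1 to 3 and -0.03 among replicates 4 to 7.

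*Gdf11*, which encodes a secreted ligand of the TGF-beta superfamily, was the gene with the smallest p. Its log2 levels were 4.75, 5.05 and 5.31 in DC-conditioned and 4.20, 4.50 and 4.65 in fresh medium. All 7 DC-conditioned arrays lay above all 7 fresh arrays. It was higher by 0.56 (SE 0.09), 1.48-fold, with a limma adjusted p of 0.255. The difference was 0.56 among replicates 1 to 3 and 0.57 among replicates 4 to 7, and with a block for these sets the limma adjusted p was 0.0111. *Slc16a6*, a member of the monocarboxylate transporter family, also separated the groups, with levels of 8.02, 8.18 and 8.44 against 7.41, 7.82 and 7.94. Its difference was 0.49 (SE 0.10, limma adjusted p = 0.358). *Cysltr2*, a receptor for cysteinyl leukotrienes, the lipid mediators of myeloid cells, was higher by 0.52 (SE 0.11, limma adjusted p = 0.387), with 6 of 7 DC-conditioned arrays above every fresh array. Leaving out DC replicate 4, the DC-conditioned array inside the fresh range, was bound to widen the gap. It gave 0.61 for *Cysltr2*, with a limma adjusted p of 0.0485. Under another alternative the limma adjusted p of *Cysltr2* was as high as 0.718. *Mios*, a subunit of the GATOR2 complex that reports amino acid supply to mTORC1, was higher by 0.45 (SE 0.11), also in 6 of 7 arrays. Smaller differences in this direction were found for *Chordc1*, a cochaperone of HSP90 (0.28, SE 0.08), and *Ralgapa2*, a GTPase-activating subunit for Ral proteins (0.32, SE 0.09), together with *Zfp947* (0.43, SE 0.11) and *Henmt1*, an RNA methyltransferase (0.29, SE 0.08). These 10 genes, *Mt1* and *Itgae* included, are those with the smallest p on the higher side, so their sizes are those of selected genes.

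*Abcd3*, a peroxisomal transporter of fatty acids, had the fourth largest difference, 0.66 (SE 0.23, limma adjusted p = 0.757). Its levels were 6.38, 6.83 and 7.11 in DC-conditioned and 4.68, 6.35 and 6.63 in fresh medium. Fresh replicate 1 alone gave the lowest of these values, and 5 of 7 DC-conditioned arrays lay above every fresh array. With that array left out the difference was 0.42 (limma adjusted p = 0.889), which is under 1.5-fold. *Slco4a1*, an organic anion transporter, and *Ptges3*, a cochaperone also named for prostaglandin E synthesis, were higher by 0.45 (SE 0.23) and 0.40 (SE 0.23), with overlapping groups.

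Among 21 measured immediate early and NR4A genes, *Nr4a3* alone had groups that did not overlap, beside 0.113% of all genes. *Nr4a3*, induced within hours by antigen receptor and cyclic AMP signals, had log2 levels of 8.04, 8.26 and 8.50 in DC-conditioned and 8.58, 8.66 and 9.23 in fresh medium. All 7 DC-conditioned arrays lay below all 7 fresh arrays. Its difference was -0.51 (SE 0.11, limma adjusted p = 0.387), and it was -0.29 among replicates 1 to 3 and -0.68 among replicates 4 to 7. *Nr4a2* levels were 6.27, 6.58 and 7.03 against 6.89, 7.13 and 7.33, with 5 of 7 DC-conditioned arrays below every fresh array. Its difference was -0.44 (SE 0.11, limma adjusted p = 0.750). *Nr4a1*, the remaining member of the family, differed by -0.15 (SE 0.11) with overlapping groups.

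*Egr1*, an immediate early transcription factor, had levels of 6.52, 7.49 and 7.84 in DC-conditioned and 6.86, 8.03 and 8.61 in fresh medium. The groups overlapped because replicates 4 and 5 were the lowest of each medium, at 6.70 and 6.52 in DC-conditioned and 6.86 and 7.01 in fresh medium. Its difference was -0.57 (SE 0.27, limma adjusted p = 0.799). *Egr2* and *Egr3* differed by 0.03 (SE 0.09) and 0.02 (SE 0.10), and *Egr2* lay within 1.2-fold. Of the 21 measured immediate early and NR4A genes 15 had a difference below 0, and the median was -0.13 against -0.01 for all genes. With an unadjusted p under 0.05 there were 3 lower genes (*Nr4a2*, *Nr4a3* and the ERK phosphatase *Dusp4*) and 1 higher (*Fosl1*, an AP-1 subunit, by 0.27, SE 0.12), beside 4.12% and 2.03% of all genes. The list mean ran from -0.30 to 0.07 in DC-conditioned and from -0.24 to 0.16 in fresh arrays, so the arrays overlapped.

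Prostaglandin E2, a product of myeloid cells, acts on T cells through the receptors EP2 and EP4 and cyclic AMP. *Ptger2* and *Ptger4*, which encode these receptors, differed by 0.05 (SE 0.11) and -0.07 (SE 0.11). In the list for this pathway 4 of 15 measured genes had an unadjusted p under 0.05, all lower, beside 4.12% of all genes: *Nr4a2* and *Nr4a3* again, *Fosl2* with a difference of -0.32 (SE 0.11), and *Ptger1*, the EP1 receptor, with -0.26 (SE 0.09). *Prkar1a*, the regulatory subunit of protein kinase A, differed by 0.00 with an interval from -0.13 to 0.12.

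*Lrrc8d*, a subunit of the volume-regulated anion channel, was the lower gene with the smallest p. Its log2 levels were 7.74, 7.88 and 8.02 in DC-conditioned and 8.14, 8.35 and 8.56 in fresh medium, without overlap. The difference was -0.42 (SE 0.08, limma adjusted p = 0.255), and even so the gene lay within 1.5-fold by the equality test, with an adjusted p of 0.0208. *Sowaha*, which encodes an ankyrin repeat protein, had levels of 3.88, 4.32 and 4.69 against 4.52, 4.93 and 5.12. In 6 of 7 DC-conditioned arrays it was below every fresh array, and the difference was -0.62 (SE 0.12, limma adjusted p = 0.260). *Slc7a7*, an exporter of cationic amino acids, *Slc49a4*, a lysosomal transporter, *Ndst4*, a heparan sulfate enzyme, and *Tex29* also had all DC-conditioned arrays below all fresh arrays, with differences of -0.37, -0.30, -0.28 and -0.33. *Ndst4* had a mean level of 2.97, in the lowest class of genes by level.

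*Ldhb* encodes the lactate dehydrogenase subunit that favours the oxidation of lactate to pyruvate. Its log2 levels were 4.67, 4.77 and 5.12 in DC-conditioned and 5.09, 5.26 and 5.41 in fresh medium, and 6 of 7 DC-conditioned arrays lay below every fresh array. The difference was -0.42 (SE 0.08, limma adjusted p = 0.270), and it was -0.43 and -0.41 in the 2 sets of replicates. The other 15 measured genes of lactate and pyruvate handling had 0 with an unadjusted p under 0.05, beside 6.14% of all genes. At that share 15 genes can hold 0. *Ldha*, the partner subunit, differed by 0.06 (SE 0.06), and the lactate carriers *Slc16a1* and *Slc16a3* by 0.02 (SE 0.12) and 0.01 (SE 0.13).

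*Ccrl2*, which encodes a receptor that binds chemerin without signalling, had levels of 5.24, 5.54 and 5.64 against 5.58, 5.97 and 6.32, and a difference of -0.50 (SE 0.11, limma adjusted p = 0.358). Fresh replicate 3 alone reached down into the DC-conditioned range. *C1qb*, a complement chain made by macrophages, differed by -0.35 (SE 0.08, limma adjusted p = 0.408), while its partners *C1qa* and *C1qc* differed by -0.02 (SE 0.09) and -0.11 (SE 0.08). The summed macrophage list did not separate the media, with array means from -0.16 to 0.05 in DC-conditioned and from -0.08 to 0.07 in fresh medium, and its part in the *C1qb* difference was not tested. *Ctse*, the aspartic protease cathepsin E, and *Plk2*, a stress-responsive kinase, differed by -0.50 (SE 0.13) and -0.52 (SE 0.25), and *Sprr2j-ps* by -0.54 (SE 0.13). The limma adjusted p was 0.750, 0.799 and 0.521 for these 3.

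Lists on nutrient supply and biosynthesis shifted slightly and not alike in all replicates. Genes induced by amino acid deprivation had a median of -0.09, with 18 of 23 below 0, where 45.2% of all genes were above it. That median was -0.26 among replicates 1 to 3 and 0.04 among replicates 4 to 7. *Sesn2*, a stress inducible inhibitor of mTORC1, had a difference of -0.42 (SE 0.17) over all replicates, -0.94 in the first set and -0.04 in the second. *Slc7a11*, the cystine importer, was higher by 0.27 (SE 0.10), with 5 of 7 DC-conditioned arrays above every fresh array. For MYC and ribosome biogenesis 19 of 21 genes lay above 0 and the median was 0.08, but it was -0.11 in the first set and 0.22 in the second. In this list 0 genes had an unadjusted p under 0.05, beside 6.14% of all genes. Chaperones of the unfolded protein response had the highest median, 0.13, with 12 of 14 above 0, and *Hspa5* (BiP) differed by 0.13 (SE 0.11). That list's median was 0.04 and 0.18 in the 2 sets. The cholesterol and fatty acid synthesis list had 16 of 18 above 0, with a median of 0.08. In the antioxidant list *Taldo1*, an enzyme of the pentose phosphate pathway, was higher by 0.26 (SE 0.07, limma adjusted p = 0.750) in 6 of 7 arrays.

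The replicate number went with more of the variation than the medium did. On the first principal component, which held 29.3% of the variance, replicates 1 to 3 of both media lay on one side and replicates 4 to 7 on the other. The medium accounted for 8.16% of the total variance of the 14 arrays and the division into these 2 sets for 25.5%. Even a split of the arrays unrelated to the medium takes up some of the variance. That share was not computed, so 8.16% is no measure of an effect of the medium. The labels name no batch, and the sets hold both media in equal shares. With the sets as a block in limma *Gdf11* alone had an adjusted p under 0.05, and 0 genes had one among replicates 1 to 3 alone or among replicates 4 to 7 alone. The medians of hypoxia, DNA replication, glycolysis and type I interferon genes had opposite signs in the 2 sets.

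**Figure D4:**
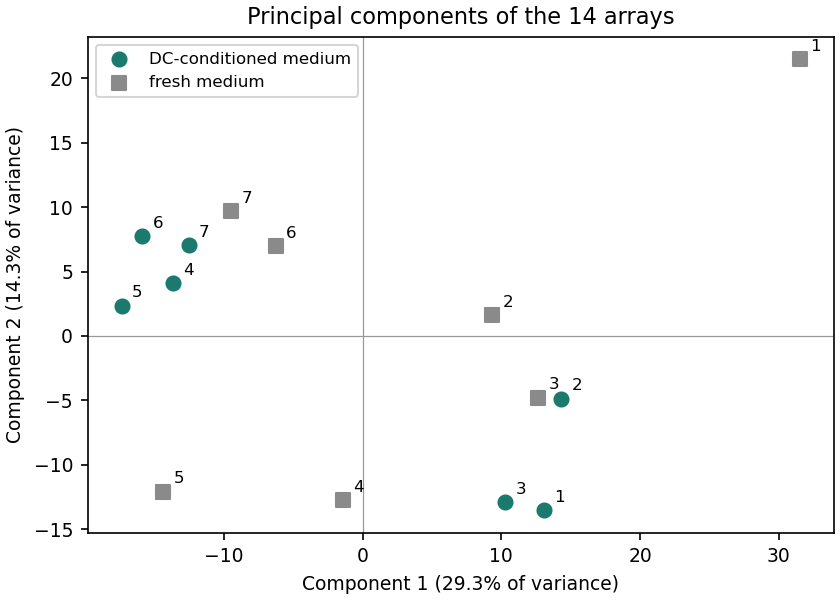
Positions of the 14 arrays on the first principal component (horizontal, 29.3% of the variance) and the second (vertical, 14.3%), with replicate numbers, circles for DC-conditioned and squares for fresh medium. Replicates 1 to 3 lie to the right of 0 and replicates 4 to 7 to the left in both media, with fresh replicate 1 farthest out.

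The AML-conditioned arrays give a measure of scale. Tested in the same way on 14 arrays, AML-conditioned minus fresh medium had 246 genes with a limma adjusted p under 0.05 (1.26%), and 231 genes differed by 1.5-fold or more, against 0 and 5 for DC-conditioned medium. The median standard error was 0.0948 there and 0.0921 here. In several of the genes below AML replicates 4 and 5 lay far from the remaining 5 AML arrays, and with both left out 74 genes (0.379%) passed. Both comparisons with fresh medium use the same 7 fresh arrays, so a fresh array that is high or low moves both in 1 direction. The difference AML-conditioned minus DC-conditioned medium does not use them, and in it 249 genes (1.28%) passed, or 79 (0.405%) with AML replicates 4 and 5 left out.

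For *Gdf11*, *Slc16a6* and *Sowaha*, which were chosen for their difference after DC-conditioned medium, the values after both conditioned media lay side by side, and the shared fresh arrays enter both. *Gdf11* differed by 0.56 (SE 0.09) after DC-conditioned and 0.55 (SE 0.09) after AML-conditioned medium, *Slc16a6* by 0.49 (SE 0.10) and 0.52 (SE 0.12), and *Sowaha* by -0.62 (SE 0.12) and -0.69 (SE 0.11). AML minus DC was -0.02 (SE 0.10), 0.03 (SE 0.11) and -0.07 (SE 0.12) for these genes, and with AML replicates 4 and 5 left out it was -0.10 (SE 0.09), -0.12 (SE 0.09) and -0.13 (SE 0.13). *Itgae* differed by 0.91 (SE 0.20) and 1.62 (SE 0.14), and AML minus DC was 0.71 (SE 0.19, limma adjusted p = 0.0758).

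Other genes had values on opposite sides of fresh medium, and several of these rest largely on AML replicates 4 and 5. *Mt1* and *Mt2* were above it by 0.67 and 0.92 after DC-conditioned medium and differed from it by -1.09 and -1.15 after AML-conditioned medium. AML minus DC was -1.76 (SE 0.50) for *Mt1* and -2.07 (SE 0.53) for *Mt2*, with limma adjusted p of 0.0886 and 0.0616. AML replicates 4 and 5 held the lowest *Mt1* levels, 7.61 and 7.04, and the lowest *Mt2* levels, 6.49 and 5.66. With both left out *Mt1* was at -0.20 (SE 0.18) against fresh and at -0.87 (SE 0.18, limma adjusted p = 0.0466) against DC-conditioned medium, and *Mt2* was at -0.26 (SE 0.35) and -1.18 (SE 0.29, limma adjusted p = 0.0962). *Egr1* was -0.57 from fresh medium after DC-conditioned and 1.24 after AML-conditioned medium, and AML minus DC was 1.81 (SE 0.30, limma adjusted p = 0.00831). With AML replicates 4 and 5 left out it was 1.35 (SE 0.21, limma adjusted p = 0.00674), and AML minus fresh was 0.78 (SE 0.27). *Nr4a3* was at -0.51 and 0.89, with AML minus DC at 1.40 (SE 0.36, limma adjusted p = 0.0585) and at 0.74 (SE 0.09, limma adjusted p = 0.0015) with those 2 arrays left out, which also took AML minus fresh to 0.23 (SE 0.12). *Cd160* was at 0.28 and -0.28, and *Itga4* at 0.26 and -0.21, and AML minus DC was -0.56 (SE 0.08) and -0.46 (SE 0.08), with limma adjusted p of 0.00316 and 0.0129.

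A further set of genes had mean levels near fresh medium after DC-conditioned and away from it after AML-conditioned medium. *Ski* and *Skil* differed from fresh by 0.12 and 0.11 after DC-conditioned and by 0.90 and 0.79 after AML-conditioned medium, and AML minus DC was 0.78 (SE 0.06) and 0.68 (SE 0.07), with limma adjusted p of 4.05e-06 and 7.65e-05. *Slc2a1*, *Slc16a3* and *Egln3*, genes of the hypoxia response, differed by -0.05, 0.01 and -0.04 and by -0.92, -1.35 and -1.46, or by -0.59, -0.76 and -0.83 with AML replicates 4 and 5 left out. AML minus DC did not pass the test for these 3, at limma adjusted p of 0.0783, 0.0789 and 0.0861, or 0.287, 0.184 and 0.227 without those arrays. AML replicates 6 and 7 lay inside the fresh range for all 3. Their levels were 11.10 and 11.16 for *Slc2a1*, 10.22 and 10.11 for *Slc16a3*, and 10.50 and 10.52 for *Egln3*. The DC-conditioned differences of these genes were -0.25, -0.25 and -0.29 among replicates 1 to 3, and 0.10, 0.20 and 0.15 among replicates 4 to 7. *Cish*, an inhibitor of cytokine signalling, and *Tnf* differed by 0.24 (SE 0.29) and -0.09 (SE 0.25) after DC-conditioned medium and were higher in AML-conditioned than in DC-conditioned medium by 1.51 (SE 0.29, limma adjusted p = 0.0167) and 1.32 (SE 0.24, limma adjusted p = 0.0131). With AML replicates 4 and 5 left out these were 1.14 (SE 0.25, limma adjusted p = 0.0570) and 1.04 (SE 0.22, limma adjusted p = 0.0509).

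**Figure D5:**
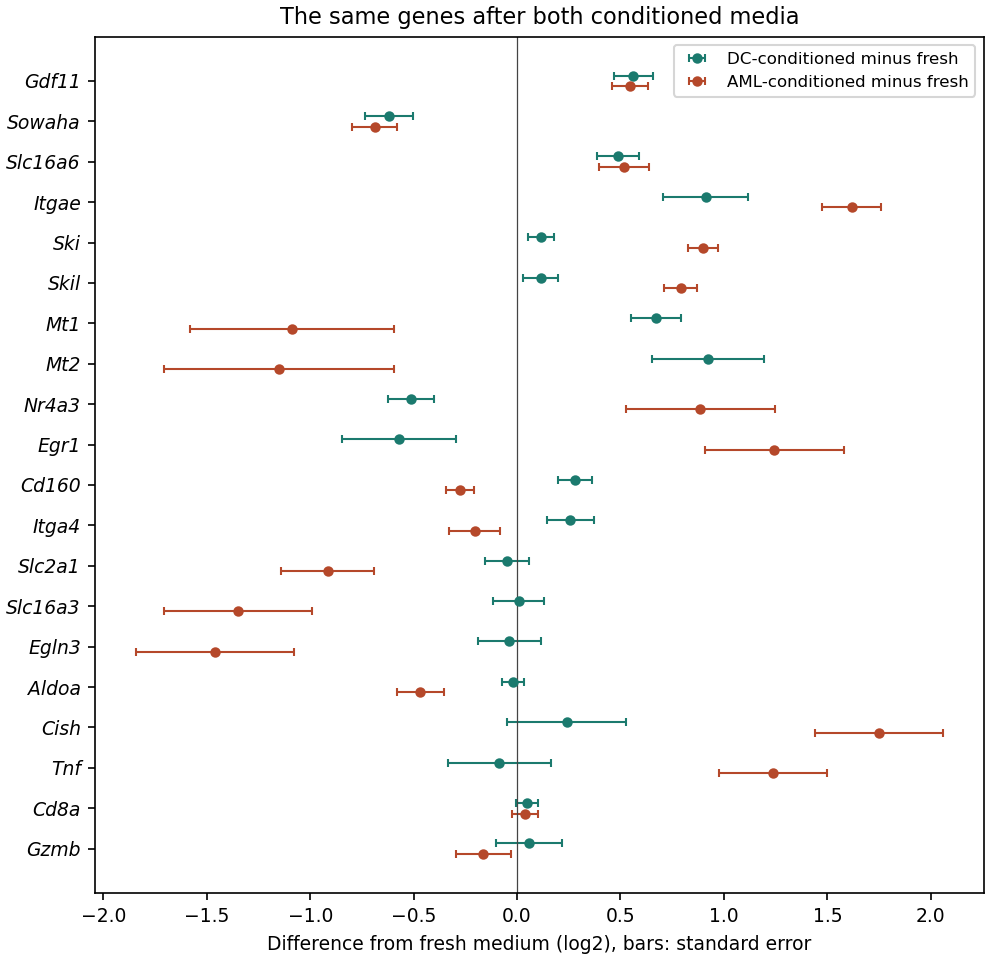
Difference from fresh medium (log2, horizontal axis) of 20 genes after DC-conditioned and AML-conditioned medium, as points with standard errors as bars. The points nearly coincide for *Gdf11*, *Sowaha* and *Slc16a6*, lie on opposite sides of 0 for *Mt1*, *Mt2*, *Nr4a3*, *Egr1*, *Cd160* and *Itga4*, and only the AML points are away from 0 for *Ski*, *Skil*, *Slc2a1*, *Slc16a3* and *Egln3*; both use the same fresh arrays.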

How the data were processed

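Log2 expression levels per transcript cluster were deposited by the authors, who used RMA (background correction, quantile normalization and summary of probes) from oligo, versions unstated, per the submitters' processing notes. Of 22203 transcript clusters 19572 had 1 gene symbol and 2631 had none in the platform annotation. Where a symbol had several clusters (55 symbols), that with the highest mean over 21 arrays was used, which gave 19505 genes with no filter on level.

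The 14 arrays were fitted with limma 3.58.1 (lmFit and eBayes, R 4.3.3) without covariates, with two-sided p-values adjusted by Benjamini-Hochberg over all genes. Equality was tested with a pair of one-sided moderated tests against a margin of 1.5-fold. P-values measure the spread between these arrays, whose number limits the precision. Scripts were tested on simulated data. Same-numbered arrays of the media had residual correlations from 0.0407 to 0.364, and the numbers were not treated as pairs.

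Genes and lists were chosen with earlier results of these data known. Named by rule were 151 genes: the 10 higher and 10 lower with the smallest p, the next 5 largest differences in each direction (both without clone names, small RNAs, antigen receptor segments and olfactory and similar receptors), those of the first 2 genes of each of 50 lists that were measured, each list's member with the smallest p, and the 6 list members with the narrowest intervals. Other list members were picked after their values were seen. Of 754 listed genes 673 were measured, and the others are not analysed here.

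Alternatives were the replicate number as block or random effect, the sets of replicates as block, all 21 arrays, other variance estimates, array weights, 2 scalings, a filter at the 25th percentile of level, the mean of a symbol's clusters, each array left out, and other margins. Each set of replicates alone, and the AML comparisons without AML replicates 4 and 5, were added after seeing the data.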

Additional observations from a re-analysis of the deposited data

Results flagged for a closer look

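Of 302 groups of 7 arrays, 2 for each of the 151 named genes, 17 held 1 array whose gap to the nearest other array was larger, as a share of the group's range, than Dixon's 95% criterion allows, and chance alone flags about 1 group in 20. Log2 levels are given for each. Fresh replicate 1 was the lowest fresh array for *Abcd3* at 4.68 (the others from 6.00 to 6.63), for *Skil* at 7.50 (the nearest at 7.87) and for *Pdcd1* at 5.56 (from 5.82 to 5.92), and the highest for *Rarb* at 5.49 (from 5.25 to 5.32). This is also the array farthest out on the first principal component.

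Fresh replicate 3 was the lowest fresh array for *Slc2a1* at 10.95, *Slc16a3* at 10.01 and *Pfkp* at 11.08. Fresh replicate 5 was the lowest for *Hspa1a* at 5.76, and DC replicate 5 the lowest of its group for the same heat shock gene at 6.10. *Ccr7* had a high array in each medium, DC replicate 1 at 10.62 and fresh replicate 4 at 10.80. DC replicate 4 was the highest of its group for *Mx1*, an interferon induced gene, at 5.63 and for *Slc7a11* at 5.38. DC replicate 2 was the lowest for *Mios* at 5.31, DC replicate 7 the lowest for *Pdcd1* at 5.23, and DC replicate 6 the lowest for *Blk* at 3.94 and the highest for *Cox7a2* at 8.69.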

How the results depend on the processing

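The count of genes with a limma adjusted p under 0.05, 0 with the 14 arrays, was 3 with a replicate block (*Mt1* at an adjusted p of 0.0219, *Gdf11* at 0.0405 and *Mt2* at 0.0411), 1 with the sets of replicates 1 to 3 and 4 to 7 as the block (*Gdf11*), and 0 to 1 with 1 array left out, *Cysltr2* passing without DC replicate 4 and *Mt1* without fresh replicate 7. Each array left out in the last 2 cases overlapped with the other medium for its gene, so its removal was bound to widen the gap. The replicate numbers were not treated as pairs, since the labels name no shared source and only 2 of 7 DC arrays correlated best with the fresh array of their own number. They are not free of shared variation. Same-numbered arrays had residual correlations from 0.0407 to 0.364, and replicates 1 to 3 lay apart from 4 to 7 in both media. With the number as a random effect the smallest adjusted p was 0.0533. The count within 1.5-fold ran from 19299 to 19411 with 1 array left out and was 8651 at a margin of 1.2-fold, 18005 among replicates 1 to 3 and 19058 among replicates 4 to 7. The sign of the difference turned under at least 1 alternative in 60 of 151 named genes and in the medians of 40 of 50 lists, so small shifts have no settled direction. The medians that kept theirs include the immediate early and NR4A genes (-0.16 to -0.08), prostaglandin E2 and cyclic AMP (-0.15 to -0.06), homing receptors (0.07 to 0.14) and the unfolded protein response (0.04 to 0.18). They also include housekeeping genes (0.01 to 0.06) and neutrophil markers (-0.09 to -0.03), so a kept sign does not single out a pathway. Detection on single arrays cannot be read from RMA values.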
